A study of Homo sapiens with 12 samples.

Results

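The genes described here are CD40, 4 of the TRAF adaptors that carry its signal (TRAF1, TRAF3, TRAF5 and TRAF6), and 5 surface markers that rise on activated B cells (CD80, CD86, CD83, CD44 and ICAM1). They were taken by gene symbol, as a set proposed with earlier results of these data known, and are 10 of the 18239 genes measured, read by 35 of 45253 probe sets that name 1 gene only. RNA came from 12 subcutaneous tumors of JEKO-1, a human mantle cell lymphoma line grown in female CB17-SCID mice, 6 to 8 weeks old, which lack functional B and T cells of their own. The tumors were of 4 groups, 3 tumors each, collected on day 18 of treatment. The combination group received both drugs, the acadesine group 400 mg/kg of that drug alone, the rituximab group 10 mg/kg of the antibody alone, and the control group vehicle, with the same doses in the combination. Acadesine was given daily by the labels and on 5 days a week by the methods, and rituximab weekly. Acadesine is a nucleoside that cells turn into an AMP mimic, an activator of AMPK, and rituximab is an antibody to CD20 on B cells. All tumors derive from 1 cell line, and the 3 from each group of 6 mice were picked as representative, which limits them as a model.

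CD40 is a receptor of the TNF receptor family on B cells and dendritic cells. When its ligand, carried by activated T cells, binds it, TRAF proteins gather at its tail inside the cell and switch on NF-κB and MAP kinase signaling. In B cells this signal is known to support survival and to raise costimulatory and adhesion molecules, among them the markers measured here.

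Each tumor was read on 1 Affymetrix HT HG-U219 array. Values are log2 expression between 3.09 and 14.3, a difference of 1 is a doubling, and each gene is read by its brightest probe set. Array medians lay between 4.59 and 4.66, and correlations between arrays were 0.989 to 0.996. Mantle cell lymphoma and B cell markers were present in every tumor, with a mean over 7 measured markers of 9.55 to 9.72 in combination tumors and 9.65 to 9.76 in control tumors. Skeletal muscle markers differed between tumors: their mean over 8 genes was 4.59, 8.04 and 6.22 in combination tumors 1, 2 and 3, 4.96 to 5.64 in acadesine tumors, 4.55 to 5.61 in rituximab tumors and 4.74 to 4.85 in control tumors. In such bulk samples fewer cells that express a gene and less RNA of it per cell cannot be told apart.

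In combination tumors CD44, CD83 and CD40 fell relative to control tumors, and no gene of the 10 rose by the test. The test was limma's moderated test over all 18239 genes with Benjamini-Hochberg adjustment, and a gene is called at an adjusted p under 0.05. It called 3 of the 10 genes lower and 0 higher, against a background of 2.47% of all genes called in either direction, 1.33% called lower and 1.14% called higher. Of the other 7 genes, 5 had a negative difference and 2 a positive one. The median log2 difference was -0.45 over the 10 genes and 0.00 over all genes. At an unadjusted p under 0.05 stood 7 of the 10, against 13.9% of all genes.

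**Figure D1:**
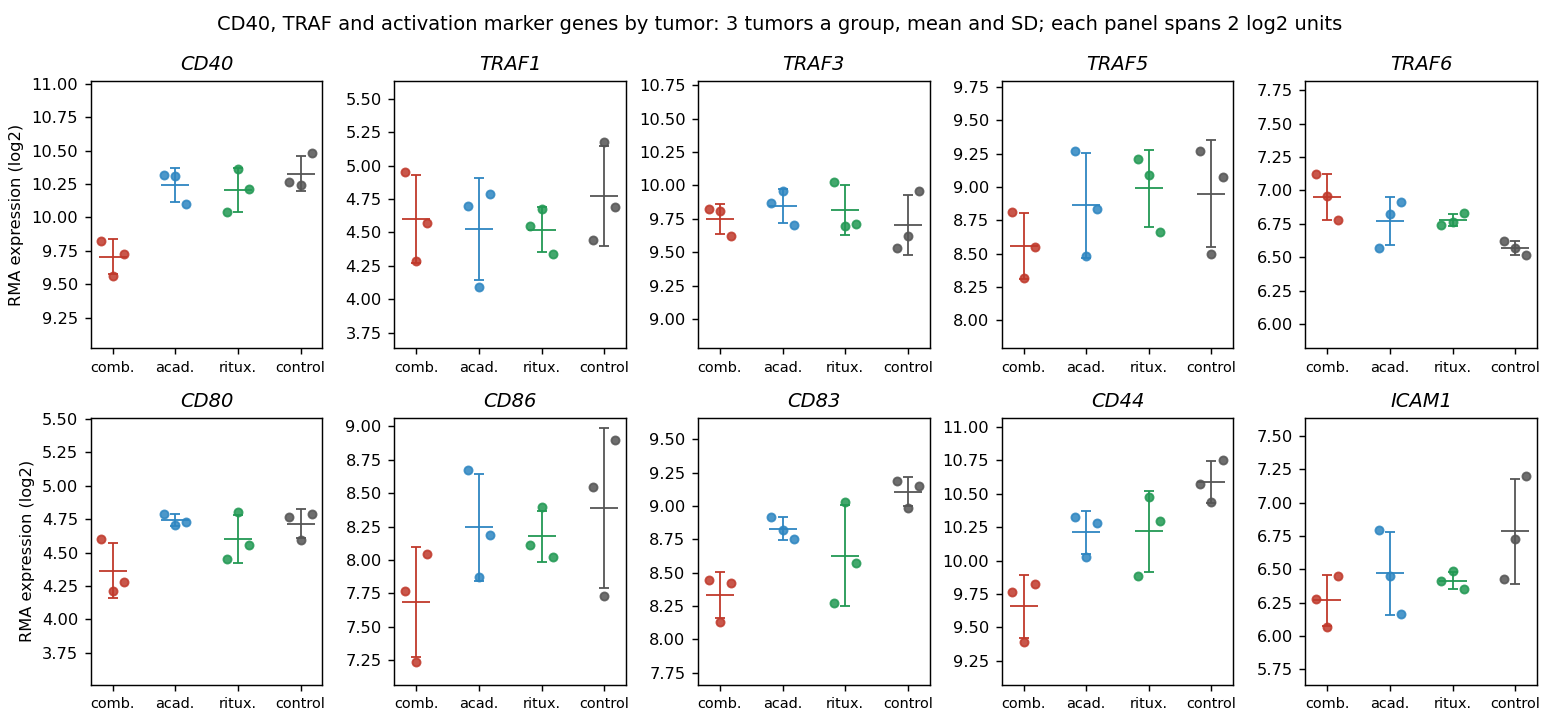
Log2 expression of the 10 genes in each tumor, 1 panel per gene with its own vertical axis spanning 2 log2 units, points for tumors and bars for group means with SD (n = 3). CD40 lies between 9.56 and 9.83 in the 3 combination tumors, below the other 9 tumors, which lie between 10.04 and 10.48.

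CD40, the receptor itself, lies on chr20:46118314-46129858 (GRCh38.p14). Its log2 expression was 9.83, 9.56 and 9.73 in combination tumors, 10.32, 10.31 and 10.10 in acadesine tumors, 10.04, 10.36 and 10.21 in rituximab tumors, and 10.26, 10.24 and 10.48 in control tumors. Every combination tumor was below every tumor of the other groups, which overlapped among themselves. The group means were 9.71 ± 0.13 with the combination, 10.24 ± 0.12 with acadesine, 10.20 ± 0.16 with rituximab and 10.33 ± 0.13 in control (SD, n = 3 each), so the combination stood lowest and the other neighbours in that order did not differ beyond their spread. CD40 was 1.54-fold lower with the combination than in control, a log2 difference of -0.62 (SE 0.103, 95% interval -0.84 to -0.41, limma adjusted p = 0.00222). Both probe sets of CD40 were called, at -0.62 and -0.57. Calls of probe sets here and below come from a separate fit, adjusted over all 45253 probe sets. Without the 4 tumors high in muscle transcripts (combination 2 and 3, acadesine 2, rituximab 2), which leaves 1 combination tumor that is assumed to vary like the other groups, the difference was -0.50 and was not called (limma adjusted p = 0.190).

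CD44, the hyaluronan receptor and an adhesion molecule, lies on chr11:35139171-35232402. Its log2 expression was 9.76, 9.39 and 9.82 in combination tumors, 10.33, 10.03 and 10.28 in acadesine tumors, 9.88, 10.48 and 10.29 in rituximab tumors, and 10.57, 10.44 and 10.75 in control tumors. The combination tumors were below all other tumors, with rituximab tumor 1 nearest to them. Acadesine tumors were all below control tumors, and rituximab tumors overlapped them. CD44 had the smallest p of the 10 genes: 1.90-fold lower with the combination than in control, a log2 difference of -0.93 (SE 0.136, 95% interval -1.21 to -0.65, limma adjusted p = 0.000691). It stayed called without any one of the 6 combination and control tumors. It also did without the 4 tumors high in muscle transcripts, but that fit rests on 1 combination tumor, assumed to vary like the other groups. CD44 is known for alternative splicing, and 10 probe sets read it. All 10 were negative, between -1.32 and -0.32, and 7 were called.

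CD83, a surface marker of mature dendritic cells and activated B cells, lies on chr6:14117256-14136918 and has 1 probe set. It stood at 8.44, 8.13 and 8.42 in combination tumors, 8.92, 8.82 and 8.75 in acadesine tumors, 8.27, 9.03 and 8.58 in rituximab tumors, and 9.19, 8.99 and 9.15 in control tumors. The combination tumors were below all acadesine and control tumors, while rituximab tumor 1 fell among them. The combination value was 1.71-fold lower than control, a log2 difference of -0.77 (SE 0.147, 95% interval -1.08 to -0.47, limma adjusted p = 0.00615). This call was lost without combination tumor 2 (-0.67, limma adjusted p = 0.0537), with the muscle level as a covariate (-0.74, adjusted p = 0.0651) and without the 4 tumors high in muscle transcripts (-0.66, adjusted p = 0.134), at differences between -0.74 and -0.66 against -0.77 with all tumors.

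**Figure D2:**
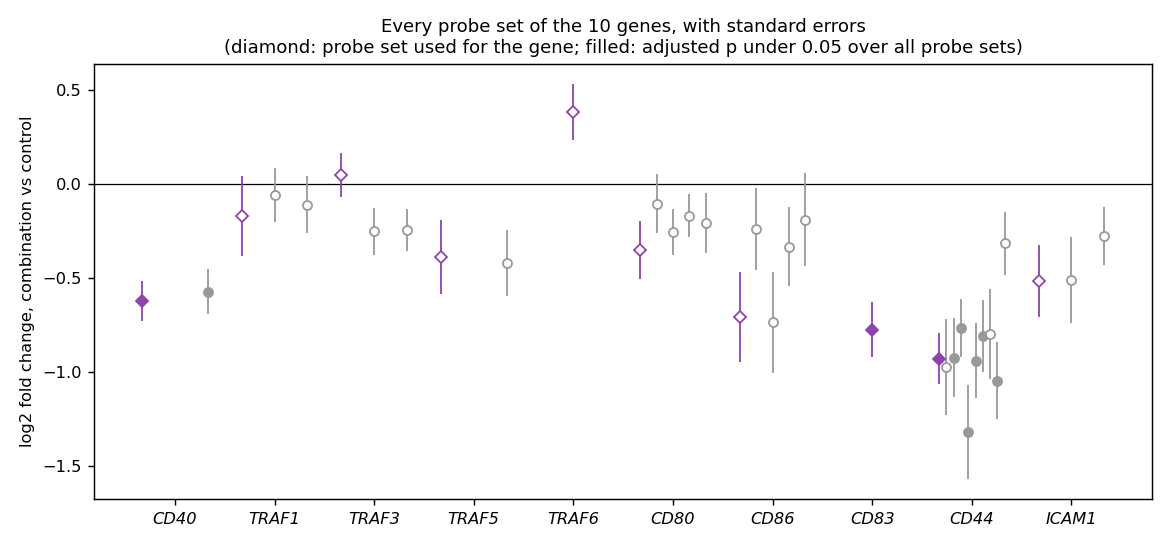
Log2 difference of combination minus control tumors (vertical axis, bars for SE) for every probe set of the 10 genes. A diamond marks the one used for the gene, and filled points those called with adjustment over all probe sets. All 10 probe sets of CD44 and both of CD40 lie below 0, while the 3 of TRAF3 lie on both sides.

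The costimulatory molecules CD80 and CD86 bind CD28 on T cells. CD86 stood at 7.77, 7.24 and 8.05 in combination tumors, 8.67, 7.87 and 8.19 in acadesine tumors, 8.12, 8.39 and 8.03 in rituximab tumors, and 8.55, 7.73 and 8.90 in control tumors. Its difference between combination and control was -0.71 (SE 0.242, limma adjusted p = 0.147), and control tumor 2, the lowest control, lay within the combination range. Without that tumor the difference was -1.04 and was called (limma adjusted p = 0.00958). Leaving it out also raised the calls over all genes from 450 to 576. All 5 probe sets of CD86 were negative, between -0.74 and -0.19, and 0 were called. CD80 was dim, at 4.60, 4.22 and 4.28 in combination tumors, 4.79, 4.71 and 4.73 in acadesine tumors, 4.45, 4.80 and 4.55 in rituximab tumors, and 4.77, 4.59 and 4.79 in control tumors. Combination and control overlapped by 1 tumor, at a difference of -0.35 (SE 0.150, limma adjusted p = 0.278).

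ICAM1 is the adhesion molecule bound by the integrin LFA-1. It stood at 6.28, 6.07 and 6.45 in combination tumors, 6.79, 6.45 and 6.16 in acadesine tumors, 6.41, 6.48 and 6.36 in rituximab tumors, and 6.43, 6.72 and 7.20 in control tumors. The lowest control tumor lay within the combination range, and the difference of -0.52 was not called (SE 0.197, limma adjusted p = 0.208). All 3 probe sets were negative, between -0.52 and -0.28.

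None of the 4 TRAF adaptors was called in any comparison. TRAF6, the adaptor that also serves Toll-like and interleukin-1 receptors, stood at 7.12, 6.96 and 6.78 in combination tumors, 6.57, 6.83 and 6.92 in acadesine tumors, 6.74, 6.76 and 6.83 in rituximab tumors, and 6.62, 6.57 and 6.51 in control tumors. It was the 1 gene of the 10 whose combination tumors were all above the control tumors, against 9.42% of all genes that did not overlap in that direction, and 3 were all below, against 9.08%. Its difference of 0.38 was not called (SE 0.151, limma adjusted p = 0.225).

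TRAF5, which binds CD40 and related receptors, stood at 8.81, 8.32 and 8.55 in combination tumors and 9.27, 8.50 and 9.08 in control tumors, a difference of -0.39 (SE 0.197, limma adjusted p = 0.392). TRAF3, a brake on the non-canonical NF-κB pathway, stood at 9.82, 9.81 and 9.62 in combination tumors and 9.53, 9.62 and 9.96 in control tumors. Its difference was 0.05 (SE 0.118, limma adjusted p = 0.927), and its other probe sets both gave -0.25, so its probe sets disagree in sign. TRAF1, itself a known NF-κB target, was dim, with 4.95, 4.29 and 4.57 in combination tumors and 4.45, 5.18 and 4.69 in control tumors. Its difference was -0.17 (SE 0.210, limma adjusted p = 0.813), with an interval from -0.61 to 0.27. In acadesine tumors TRAF5 lay between 8.48 and 9.27, TRAF3 between 9.71 and 9.96 and TRAF1 between 4.09 and 4.79, and in rituximab tumors between 8.66 and 9.21, 9.70 and 10.03, and 4.34 and 4.68. The ranges of all 4 groups overlapped in each of these 3 genes.

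**Figure D3:**
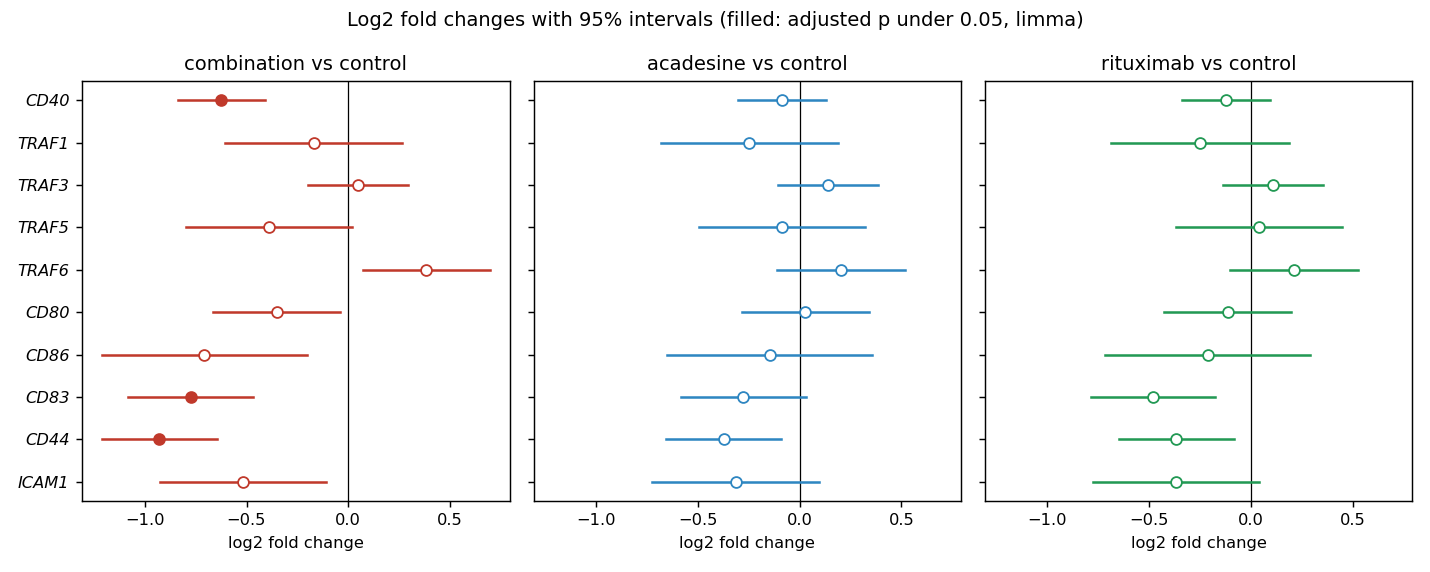
Log2 differences of the 10 genes (horizontal axis) with 95% intervals, 1 panel each for the combination, acadesine and rituximab against control, filled where called. In the combination the intervals of CD44, CD83 and CD40 run from -1.21 to -0.65, -1.08 to -0.47 and -0.84 to -0.41.

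The combination was also set against each agent alone. Against acadesine, 2 of the 10 genes were called lower, CD40 and CD44, against 2.45% of all genes called in either direction and 1.13% called lower. CD40 differed by -0.54 (SE 0.103, limma adjusted p = 0.00761) and CD44 by -0.56 (SE 0.136, limma adjusted p = 0.0317). Both probe sets of CD40 were called, but of CD44 only the brightest of 10 was, while all 10 were negative, between -0.84 and -0.24. In CD80 and CD83 the combination tumors were also all below the acadesine tumors without passing the test, at -0.38 (limma adjusted p = 0.209) and -0.50 (limma adjusted p = 0.0783), which makes 4 of 10 genes that did not overlap, against 10.8% of all genes.

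Against rituximab, CD40 and CD44 were again the 2 genes called lower, against 2.82% of all genes called in either direction and 1.31% called lower. CD40 differed by -0.50 (SE 0.103, limma adjusted p = 0.0104) and CD44 by -0.56 (SE 0.136, limma adjusted p = 0.0282), while CD83 differed by -0.29 (SE 0.147, limma adjusted p = 0.371). Here 1 of 2 probe sets of CD40 and 1 of 10 of CD44 passed the adjustment over all probe sets, in each gene only the one used. The other probe set of CD40 stood at -0.40 (limma unadjusted p = 0.00310, adjusted p = 0.105). The 10 of CD44 were all negative, between -0.84 and -0.40. CD40 and CD44 were also the 2 of 10 genes whose combination tumors were all below the rituximab tumors, against 9.8% of all genes. Both comparisons share the combination tumors. Each set of 2 calls fell to 0 without combination tumor 2 or without the 4 tumors high in muscle transcripts. Without the 4 tumors the differences from acadesine were -0.38 for CD40 and -0.54 for CD44, and those from rituximab were -0.30 and -0.33, while 10 and 24 genes of all were still called. Without combination tumor 2 the differences from acadesine were -0.47 for CD40 and -0.42 for CD44, and those from rituximab -0.43 for both. The calls against acadesine fell to 0 without acadesine tumor 1 and to 1 without combination tumor 1 or acadesine tumor 3, and those against rituximab to 0 without rituximab tumor 2 and to 1 without combination tumor 1 or rituximab tumor 3.

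Each agent alone called 0 of the 10 genes against control, as it did of all genes (0%). At an unadjusted p under 0.05 stood 1 of the 10 with acadesine, against 7.8% of all genes, and 2 with rituximab, against 4.21%. CD44 differed by -0.37 with acadesine (SE 0.136, limma adjusted p = 0.577) and -0.37 with rituximab (SE 0.136, limma adjusted p = 1.00). CD83 differed by -0.28 with acadesine (SE 0.147, limma adjusted p = 0.669) and -0.48 with rituximab (SE 0.147, limma adjusted p = 1.00). ICAM1 differed by -0.31 with acadesine (SE 0.197, limma adjusted p = 0.702) and by -0.37 with rituximab (SE 0.197, limma adjusted p = 1.00). All acadesine tumors were below all control tumors in CD44 and CD83, 2 of 10 genes against 5.95% of all genes, and all rituximab tumors were above all control tumors in TRAF6, 1 of 10 against 4.38%.

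The interaction, which is the combination's difference from control minus the sum of both agents' differences, was called for 0 of the 10 genes, against 0.28% of all genes. At an unadjusted p under 0.05 stood 1 of the 10, CD40, against 10.8% of all genes. Its interaction was -0.41 (SE 0.146, limma unadjusted p = 0.0101, adjusted p = 0.271), and that of CD44 was -0.19 (SE 0.192, limma adjusted p = 0.795).

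The promoter windows of the 10 genes, 250 bases before to 50 after each start, were taken from RefSeq (GRCh38.p14) for 9 genes with 15 windows, without CD40. They were searched on both strands for the κB consensus, the motif that NF-κB binds, written GGGRNNYYCC (R is A or G, Y is C or T, N any base). Only exact matches were counted, so a window without a match may still hold a site that departs from this pattern. It was found in 3 of 15 windows, 1 each of CD83, TRAF3 and CD86, and in 11.3% of 35116 windows of that length. The windows of CD83 (called lower) and TRAF3 (not called), both with matches, and of CD44 (called lower, no match) are shown to set the gene's change beside its sequence, with κB matches in capitals, overlapping ones joined. CD83 is at chr6:14117522-14117821, TRAF3 at chr14:102777199-102777498 and CD44 at chr11:35138921-35139220, all on the plus strand.
CD83: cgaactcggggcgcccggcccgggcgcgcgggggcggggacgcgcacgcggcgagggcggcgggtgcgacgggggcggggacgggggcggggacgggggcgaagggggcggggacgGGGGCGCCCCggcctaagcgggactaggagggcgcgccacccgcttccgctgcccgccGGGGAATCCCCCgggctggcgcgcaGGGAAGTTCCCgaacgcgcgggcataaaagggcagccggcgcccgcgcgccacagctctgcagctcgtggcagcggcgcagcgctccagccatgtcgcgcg
TRAF3: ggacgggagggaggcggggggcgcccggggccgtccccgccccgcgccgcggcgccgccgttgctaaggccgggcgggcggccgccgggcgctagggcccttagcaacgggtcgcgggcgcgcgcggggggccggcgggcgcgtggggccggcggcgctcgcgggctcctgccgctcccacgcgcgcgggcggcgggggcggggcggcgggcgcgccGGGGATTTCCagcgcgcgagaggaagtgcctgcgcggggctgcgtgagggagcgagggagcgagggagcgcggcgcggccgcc
CD44: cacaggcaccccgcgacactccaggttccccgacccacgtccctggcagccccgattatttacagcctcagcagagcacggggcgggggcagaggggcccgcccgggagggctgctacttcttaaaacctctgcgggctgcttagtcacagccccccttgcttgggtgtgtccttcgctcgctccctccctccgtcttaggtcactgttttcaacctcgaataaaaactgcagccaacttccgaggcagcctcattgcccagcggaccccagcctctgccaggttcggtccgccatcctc
CD83 held 6 matches in 3 stretches and TRAF3 held 1, at bases -33 to -24 from the start. Binding of the factor was not measured. The windows shown were picked by match and call. Of all genes with a match, CD83 was called in the combination against control, and TRAF3 and CD86 were not.

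Other genes of the pathway were counted from 4 lists for combination against control, where 1.33% of all genes were called lower and 1.14% higher. Of 37 measured genes of CD40 signal transduction, 4 fell and 0 rose: NFKB1, the p105 precursor of an NF-κB subunit, at -0.49 (limma adjusted p = 0.00869), CYLD and TNFAIP3, deubiquitinases that restrain NF-κB, at -0.49 (adjusted p = 0.0315) and -0.50 (adjusted p = 0.0479), and NFKBIA, its inhibitor, at -0.41 (adjusted p = 0.0380). The list's median was -0.15. NFKB1 was 10.06, 9.85 and 9.91 in combination tumors and 10.51, 10.27 and 10.50 in control tumors. Both the subunit gene and genes that restrain the pathway were thus among the 4. TNFAIP3 was 7.84, 8.01 and 7.91 in combination tumors, 7.98, 7.98 and 7.96 in acadesine tumors, 7.87, 8.45 and 8.27 in rituximab tumors, and 8.44, 8.40 and 8.43 in control tumors.

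Of 25 measured genes that CD40 ligation is known to induce in B cells, 4 fell and 1 rose, with a median of -0.17. BCL2A1, an anti-apoptotic BCL2 relative, had the smallest p, at 4.92, 4.36 and 5.12 in combination tumors and 6.79, 5.92 and 6.94 in control tumors, a difference of -1.75 (SE 0.304, limma adjusted p = 0.00324). LTB, lymphotoxin beta, fell by 0.73 (limma adjusted p = 0.0224) and CFLAR, an inhibitor of caspase-8, by 0.49 (limma adjusted p = 0.0272). The death receptor FAS also fell, by 0.70 (limma adjusted p = 0.0449), and is named after its value was seen. IRF4, a transcription factor of plasma cell differentiation, rose by 0.38 (limma adjusted p = 0.0352).

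Of 15 TRAF-binding TNF receptors other than CD40, 2 fell and 0 rose, with a median of 0.00: CD27 at -0.49 (limma adjusted p = 0.0150) and TNFRSF13B, which encodes TACI, at -0.55 (limma adjusted p = 0.0245). Of 14 measured costimulatory and adhesion ligands, 2 fell and 0 rose, with a median of -0.40: TNFSF4, the OX40 ligand, at -0.81 (limma adjusted p = 0.0166) and CD82, a tetraspanin, at -0.75 (limma adjusted p = 0.0411). Each of the 4 lists had 0 genes called in acadesine or in rituximab tumors against control. At an unadjusted p under 0.05 stood, in the order the lists are given here, 7, 3, 1 and 0 genes with acadesine, against 7.8% of all genes, and 4, 1, 1 and 2 with rituximab, against 4.21%. With the muscle level as a covariate, or without the 4 tumors high in muscle transcripts, each list's count for the combination was 0, while the calls over all genes became 132 and 39, against 450. The list medians, in the same order, were then -0.10, -0.12, 0.037 and -0.23 with the covariate and -0.15, -0.16, 0.035 and -0.29 without the 4 tumors. Without combination tumor 2 or without control tumor 3 the counts, in the same order, were 0, 1, 0 and 0.

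**Figure D4:**
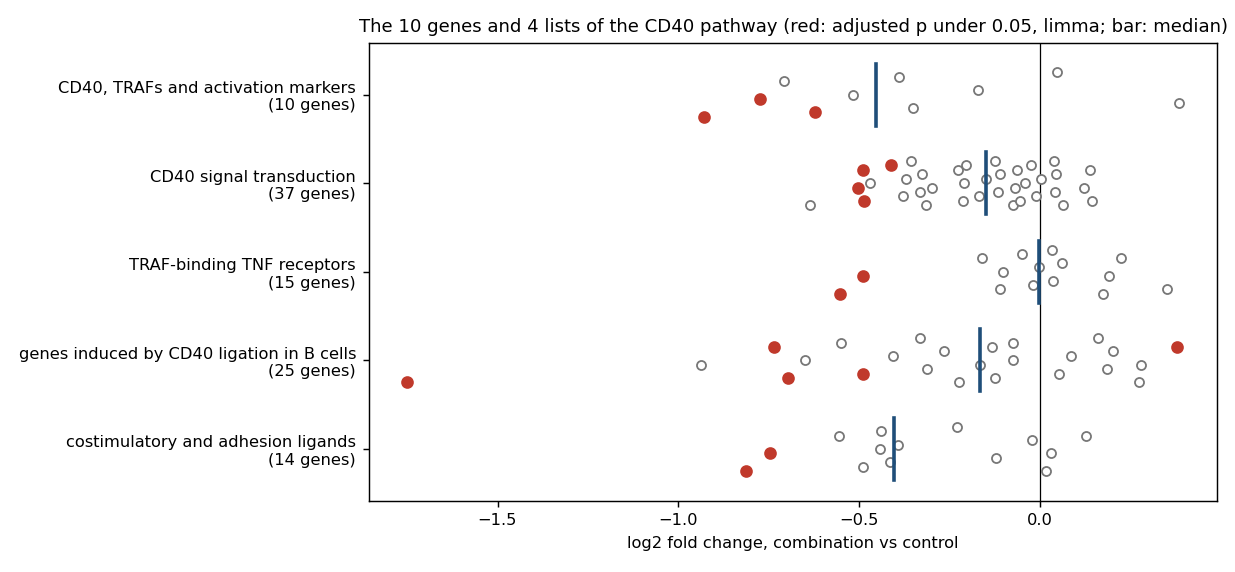
Log2 difference between combination and control tumors for the 10 genes and 4 lists of the CD40 pathway, 1 point per gene on a horizontal log2 axis, red where called, with a bar at each list's median. The medians run from -0.45 for the 10 genes to 0.00 for the TRAF-binding TNF receptors.

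Markers of other cell types were read beside these genes. For combination against control 2 of 8 skeletal muscle markers were called higher, MYL11 at 2.69 (limma adjusted p = 0.0302) and TNNI2 at 1.99 (limma adjusted p = 0.0487), with a list median of 1.35. Combination tumor 1, whose muscle mean of 4.59 was below every control tumor, had CD40 at 9.83, CD44 at 9.76 and CD83 at 8.44, each below every control tumor. Combination tumor 2, with the highest muscle mean of all tumors (8.04), also had the lowest CD40 (9.56), CD44 (9.39) and CD83 (8.13) of all tumors. Macrophage and dendritic cell markers, which matter for CD83, CD80 and CD86, averaged 4.39 to 4.45 over 7 genes in combination tumors and 4.31 to 4.72 in control tumors, and 0 of 7 were called. T and NK cell markers averaged 4.47 to 4.57 over 6 genes in combination tumors and 4.39 to 4.66 in control tumors, with 0 of 6 called. Endothelial markers averaged 4.90 to 5.04 in combination tumors and 4.97 to 5.09 in control tumors, with 0 of 6 called. Fibroblast markers averaged 4.34 to 4.61 in combination tumors and 4.02 to 4.48 in control tumors, with 1 of 6 called, COL3A1 at 0.72 (limma adjusted p = 0.00483). Host cells of these kinds would be of mouse, and a human array reads mouse RNA only where its probes match it. The macrophage, T and NK, endothelial and fibroblast means also lay below the median of gene means, 5.26. These counts therefore cannot show whether host cells differed between the groups. Of the B cell and mantle cell lymphoma markers 1 of 7 was called, CD5, at -1.29 (limma adjusted p = 0.00322), while 4 of 7 were positive and the list median was 0.03. Among those, SOX11, named after its value was seen, was at 0.96 (limma adjusted p = 0.0503). Negative but not called were CD79A at -0.34 (limma adjusted p = 0.153) and MS4A1 at -0.24 (limma adjusted p = 0.270), also named after their values were seen. At an unadjusted p under 0.05 stood 4 of the 7, against 13.9% of all genes. Of all these cell types, only the muscle level was set against the differences of the 10 genes, by the covariate and the omitted tumors given above. The part of the other cell types was not tested.

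Over the 12 tumors some of the 10 genes varied together and others did not. The highest Pearson correlations were 0.925 between CD83 and CD44, 0.904 between CD40 and CD44, 0.875 between CD40 and CD80 and 0.865 between CD40 and CD83. TRAF6 ran the other way, at -0.814 with ICAM1, -0.721 with CD44 and -0.672 with CD40. CD40 stood at 0.087 with TRAF1 and 0.106 with TRAF3. These points share the treatment groups, so the values are a description. Outside the 10, the genes most like CD40 over the 12 tumors were EMB (0.975), SP140 (0.971), CRLF3 (0.959), TES (0.956) and CSTB (0.953). Those most like CD44 were TRIM22 (0.965), RCAN2 (0.952), CD5 (0.951), PARP9 (0.943) and TCEA1 (0.937).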

How the data were processed

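RNA of 12 tumors was hybridized to Affymetrix HT HG-U219 arrays, 1 per tumor. The deposited log2 values were made by the authors with RMA (BioConductor affy): background correction, quantile normalization between arrays and a summary per probe set, so a shift of all genes at once would not be seen. Host mouse RNA may bind probes it matches.

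Of the probe sets, 93 Affymetrix controls and 1327 that name several genes were left out. A gene was read by its single-gene probe set with the highest mean. A model with 4 groups was fitted on all 12 arrays (limma 3.58.1, R 4.3.3), letting the variance follow intensity. Its code was run on simulated independent noise with planted differences, which does not test the model's assumptions for these tumors. P values were Benjamini-Hochberg adjusted over 18239 genes, at a threshold of 0.05. Single probe sets were fitted apart, with p values adjusted over all 45253 of them. The methods used Rank Products, so limma is a choice made here. The labels call the tumors biological replicates and give no batch. With 3 tumors against 3, an exact permutation test cannot go below 0.1. Tables and figures used Python 3.11.15, pandas 2.3.3 and matplotlib 3.10.9. Columns of other samples numbered 0.

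The 10 genes and all lists were chosen with earlier results of these data known. Named are the 10 genes, up to 4 called genes with the smallest p of each list and up to 2 called the other way, and the 5 genes most correlated with CD40 and with CD44. Of the listed genes CD40LG, TRAF2, BIRC3, IRAK4, MAPK14, RIPK1 and MRC1, among others, were not analysed here.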

Additional observations from a re-analysis of the deposited data

How the results depend on the processing

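Alternatives were the mean of a gene's probe sets, every other probe set, dim genes left out, no intensity trend, robust variance, array weights, cyclic loess, median centring, the compared groups alone, the replicate block, the muscle level as a covariate, no muscle-high tumors (4 left out), each tumor left out, and an adjusted p under 0.2 with a fold change over 1.4. Of 149 alternative values for the 7 called differences of CD40, CD44 and CD83, 99 stayed called, 50 lost the call and 0 turned direction. Tumor numbers in the labels were not taken to pair the tumors, since in no comparison did every correlation of deviations exceed 0.1: they were 0.039, 0.10 and 0.076 for combination and control and 0.14, 0.19 and 0.070 for combination and acadesine, though 6 of 6 tumors in both matched their own number best, a hint from the data. With the replicate block the counts were as before: 3 of the 10 genes for combination against control, 2 against each agent, 0 for each agent and the interaction, and 4, 2, 5 and 2 in the lists of signal transduction, receptors, induced genes and ligands. It changed no call of the 10 genes or the lists. Over all genes the calls went from 450 to 481 for combination against control and from 51 to 68 for the interaction.

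For combination against control, 3 calls became 1 without the muscle-high tumors and ranged from 2 to 4 with each tumor left out, while those over all genes, 450, became 39 and ranged from 140 to 576. An adjusted p under 0.2 with a fold change over 1.4 gave 4 against control (CD86 besides), 3 against acadesine, 2 against rituximab, and 4, 2, 7 and 2 in the lists. Against acadesine, 2 calls became 1 with the mean of probe sets, no trend or the covariate and 0 without the muscle-high tumors, with 0 to 2 when each tumor was left out. Against rituximab, 2 became 1 with the mean of probe sets and 0 with no trend, the covariate or without the muscle-high tumors, with 0 to 2 when each tumor was left out. For the lists, no trend gave 1, 0, 2 and 1, the covariate and leaving out the muscle-high tumors 0 each, cyclic loess and the compared groups alone 2 for signal transduction, the mean of probe sets 2 for induced genes and 1 for ligands, and robust variance 1 for ligands. Leaving out each tumor gave 0 to 3, 0 to 2, 1 to 5 and 0 to 2. The counts, in the same order, were 0, 0, 1 and 0 without combination tumor 2 or without control tumor 3. Signal transduction also fell to 2 without combination tumor 3 and 0 without control tumor 1, receptors to 1 without combination tumor 1 or control tumor 2, induced genes to 2 without combination tumor 1 or 3 and to 3 without control tumor 1, and ligands to 0 without combination tumor 1 or control tumor 1.

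Some differences that were not called turned sign. TRAF1 in the combination was 0.10 with the covariate, 0.18 without the muscle-high tumors and 0.034 without control tumor 2, from -0.34 to 0.034 over the tumors left out. TRAF3 was -0.15 as a mean of probe sets, -0.039 without control tumor 1 (-0.039 to 0.17 over the tumors left out) and -0.25 in both other probe sets. In other probe sets, ICAM1 with acadesine was 0.070, CD44 with rituximab 0.26 and CD80 in the combination against acadesine 0.24. CD83 in the combination against rituximab was 0.018 without the muscle-high tumors. Depth of reads does not apply to arrays, and 3 tumors a group limit the precision.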
